A study of Mus musculus with 21 samples.

Results

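Hoxb1, Hoxb2, Hoxb3, Hoxb4, Hoxb5 and the antisense transcript Hoxb3os form the 3′ part of the mouse Hoxb cluster on chromosome 11, and their RNA levels were followed in 21 bulk RNA-seq libraries. These 6 genes were found by symbol among the 24594 genes of each of 2 count tables. The genotype table held 12 libraries of pharyngeal arches 2 and 3 (PA2 and PA3), taken by dissection at E10.5 (E for day of embryonic development) from WT embryos and from HIRE1del/del embryos, which lack a distant regulatory region of the Hoxa cluster on chromosome 6 on both alleles after CRISPR deletion (libraries titled delta-E3, here HIRE1del). The stage table held 9 libraries of cranial neural crest cells (CNCCs) isolated by FACS from the E10.5 PA2 and from the pinna, the outer ear, at E12.5 and E14.5 in Wnt1::Cre;ROSA RFP embryos, with no deletion. Each of the 7 groups had 3 libraries. All mice were of mixed C57Bl/6J and CD1 background, and since male and female embryos were pooled, no library is 1 animal. Cre in the sorted cells was driven by the Wnt1 promoter, which marks premigratory crest and leaves RFP on in all its descendants. For the arches no sorting is stated although the labels call them CNCCs, and markers of other tissues were present (below, beside each result). The labels do not say that the 3 libraries of a group came from separate litters, so p-values measure the spread between these libraries.

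Hox genes code for homeodomain transcription factors that give cells along the head-to-tail axis their positional identity. Within a cluster, genes nearer the 3′ end are in general expressed further forward. In the hindbrain Hoxb2 reaches furthest forward of these genes, and Hoxb3, Hoxb4 and Hoxb5 begin at successively more posterior levels. Hoxb1, which lies nearest the 3′ end but marks rhombomere 4, is an exception. Crest cells that leave the hindbrain carry part of this code into the arches, with Hox paralogue group 2 genes in PA2 and group 3 genes added in PA3. Hoxb3os is a noncoding RNA made from the opposite strand of the Hoxb2 and Hoxb3 region, and its function is not well known.

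By the gene models that match the exonic lengths in the tables (GENCODE M21, GRCm38), the genes lie in the order Hoxb5 (96303512 to 96306120), Hoxb4 (96318267 to 96321638), Hoxb3 (96323326 to 96347930), Hoxb2 (96351631 to 96354012) and Hoxb1 (96365752 to 96368256), all on the plus strand of chromosome 11. Hoxb3os (96343072 to 96354691) is read from the minus strand, through exons of Hoxb2 and Hoxb3. Of its 4201 exonic bases, 2250 are also exonic in Hoxb3 and 953 in Hoxb2. The shared stretch holds 851 of the 1299 coding bases of Hoxb3 and 567 of the 1062 coding bases of Hoxb2 (stop codons not counted), and the other shared bases (1399 and 386) are untranslated. The start of Hoxb3os in RefSeq lies inside the last coding exon of Hoxb2. The model counted here begins further upstream, at 96354691, beyond the end of Hoxb2 at 96354012. The window around the RefSeq start is shown because Hoxb3os was called in every comparison of 2 groups below and by RefSeq starts within another of the 6 genes. Capitals mark the first 50 transcribed bases by the RefSeq start. Of its 300 bases (GRCm38.p6, minus strand, chr11:96353345-96353644), 282 are Hoxb2 coding sequence read in reverse, 3 are the Hoxb2 stop codon and 15 lie past it.
Hoxb3os: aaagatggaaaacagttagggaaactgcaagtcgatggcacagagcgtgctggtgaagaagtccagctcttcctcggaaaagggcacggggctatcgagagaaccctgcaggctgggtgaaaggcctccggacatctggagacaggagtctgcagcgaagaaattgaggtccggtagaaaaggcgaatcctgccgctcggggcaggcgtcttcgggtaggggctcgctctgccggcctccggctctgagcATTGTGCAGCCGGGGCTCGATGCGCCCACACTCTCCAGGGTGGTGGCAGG

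RefSeq start windows were at hand for 3 of the 6 genes (Hoxb1, Hoxb3os and Hoxb4). They were searched on both strands for TGATNNAT, a form of the site bound by Hox proteins with their cofactor Pbx, and for TGACAG, the core site of Meis proteins. The Pbx-Hox letters occurred once, in the Hoxb1 window, with the first letter 162 bases before the start, and occur in 8.85% of all 32851 windows of this length. The Meis letters occurred in none of the 3 windows and occur in 19.2% of all windows. A match of letters is a description and does not show binding. The 250 bases before the Hoxb1 start (GRCm38.p6, plus strand, chr11:96365508-96365757) are shown because they hold the only match, which is in capitals.
Hoxb1: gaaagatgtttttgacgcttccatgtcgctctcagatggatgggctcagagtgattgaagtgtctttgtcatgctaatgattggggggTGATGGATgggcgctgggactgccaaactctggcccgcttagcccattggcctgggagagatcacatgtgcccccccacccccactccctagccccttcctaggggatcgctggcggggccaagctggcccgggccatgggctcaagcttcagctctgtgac

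**Figure D1:**
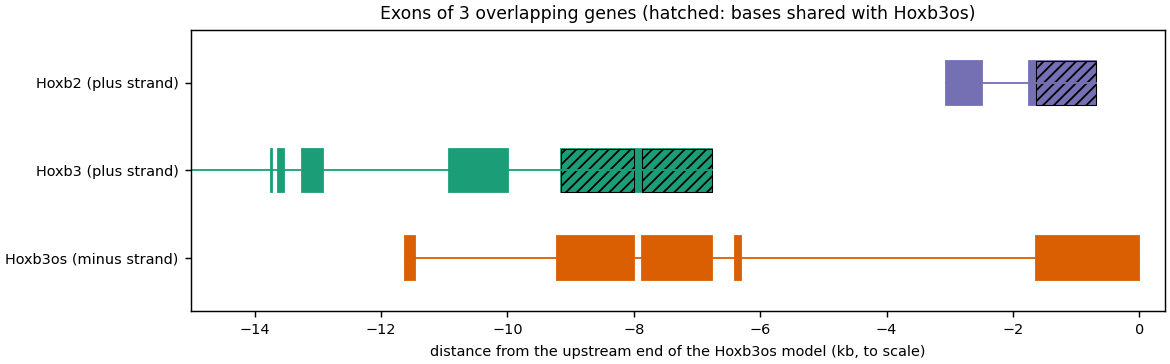
Exons (boxes) of Hoxb2, Hoxb3 and Hoxb3os drawn to scale against the distance in kb from the upstream end of the Hoxb3os model. Hatching marks the 953 bases of Hoxb2 and the 2250 bases of Hoxb3 that are exonic on both strands, which is 58.5 and 52.9% of the exonic bases of these genes.

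Because the shared bases are so many, it was first asked whether the counts keep the strands apart. Pairs of genes elsewhere in the genome that overlap on opposite strands by at least 200 exonic bases were used, where the partner alone would add at least 2000 counts in each table if both strands were counted (330 pairs of a gene and its partner, with 328 different genes). In the stage libraries the gene had under 10% of the counts that the partner would add in 80 of the 330 pairs, and in the genotype libraries in 8. The 80 pairs with a gene nearly silent in the stage libraries (median 2.14% of the added counts, quartiles 0.361 and 5.28%) had a median of 97.2% in the genotype libraries (quartiles 49.9 and 133%). The stage counts thus hold reads of 1 strand, and the genotype counts hold reads of both strands. Why the tables differ was not tested. The library kit was named alike, and the genotype libraries were sequenced from both ends and the stage libraries from a single end. In the genotype libraries, counts of Hoxb3os, Hoxb3 and Hoxb2 therefore include one another's reads on the shared bases, and levels and fold changes of these genes are also given after the reads were divided under the assumption of even coverage of each model, where that division leaves a level above 0.

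**Figure D2:**
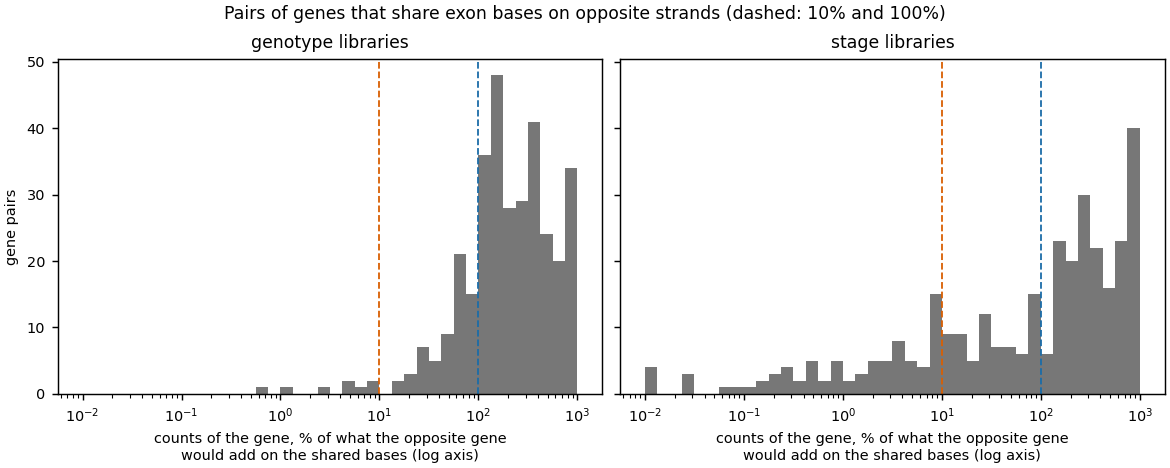
Histograms over 330 pairs of a gene and its opposite-strand partner, of the gene's counts as a percentage of the counts that the partner would add on the shared bases (log axis; values beyond the axis are drawn at its edges), for the genotype and the stage libraries. The stage libraries have 80 pairs under 10% (dashed line) and the genotype libraries 8.

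Library totals were 25804446 to 32210131 counts in the genotype table and 25814151 to 49058941 counts in the stage table, the E14.5 libraries being the deepest. Levels are given as CPM, which relates the counts of a gene to the TMM-scaled total of its library, and 3 counts, taken as the detection floor of a library, correspond to 0.0924 to 0.117 CPM in the genotype and 0.0631 to 0.111 CPM in the stage libraries. Genes that reached 1 CPM in 2 or more libraries of a table were tested. Hoxb2, Hoxb3, Hoxb3os and Hoxb4 passed in the genotype table, Hoxb2, Hoxb3 and Hoxb3os in the stage table, and Hoxb1 and Hoxb5 in neither, so that 2 of the 6 genes are described by their counts alone. Crest mesenchyme markers (Prrx1, Prrx2, Twist1, Pdgfra, Dlx2 and Dlx5) were present in all libraries, with a summed level of 655 to 1151 CPM in the arches and 1627 to 3990 CPM in the sorted cells. Epithelial markers summed to 238 to 697 CPM in the arches and 7.80 to 38.2 CPM in the sorted cells, and red blood cell markers to 1413 to 22407 CPM in the arches and 1.73 to 10.4 CPM in the sorted cells. In bulk RNA, fewer cells of a type and less RNA per cell cannot be told apart.

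Hoxb2, Hoxb3os and Hoxb3 followed the same order of level in all 7 groups when CPM were divided by exonic length. In PA2 WT, Hoxb2 was at 13.7 ± 2.21 CPM per kb (SD, n = 3), Hoxb3os at 7.85 ± 0.420, Hoxb3 at 2.93 ± 0.186, Hoxb4 at 0.104 ± 0.0069 and Hoxb1 at 0.0746 ± 0.0695, and Hoxb5 had no count. Neighbours in this order did not overlap between libraries except Hoxb4 and Hoxb1. Hoxb2 was also the highest in PA2 HIRE1del (9.11 ± 1.06 CPM per kb), in PA3 WT (21.6 ± 2.24), in PA3 HIRE1del (18.9 ± 2.45) and in the sorted E10.5 PA2 (12.7 ± 0.986). Hoxb3os came after Hoxb2 and before Hoxb3 in each group, and Hoxb2 and Hoxb3os overlapped in PA3 WT, where Hoxb3os was at 19.0 ± 0.474 CPM per kb. After the shared reads were divided, Hoxb2 was at 10.51 ± 2.21, Hoxb3os at 5.44 ± 0.0113 and Hoxb3 at 0.0476 ± 0.192 CPM per kb in PA2 WT, and at 14.1 ± 2.71, 12.8 ± 1.03 and 5.59 ± 0.763 in PA3 WT, in the same order. Hoxb3os was therefore present at a higher level per length than the coding gene it overlaps most, in libraries that keep the strands apart as well: in the sorted E10.5 PA2 it was at 3.89 ± 0.189 CPM per kb and Hoxb3 at 0.964 ± 0.359.

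**Figure D3:**
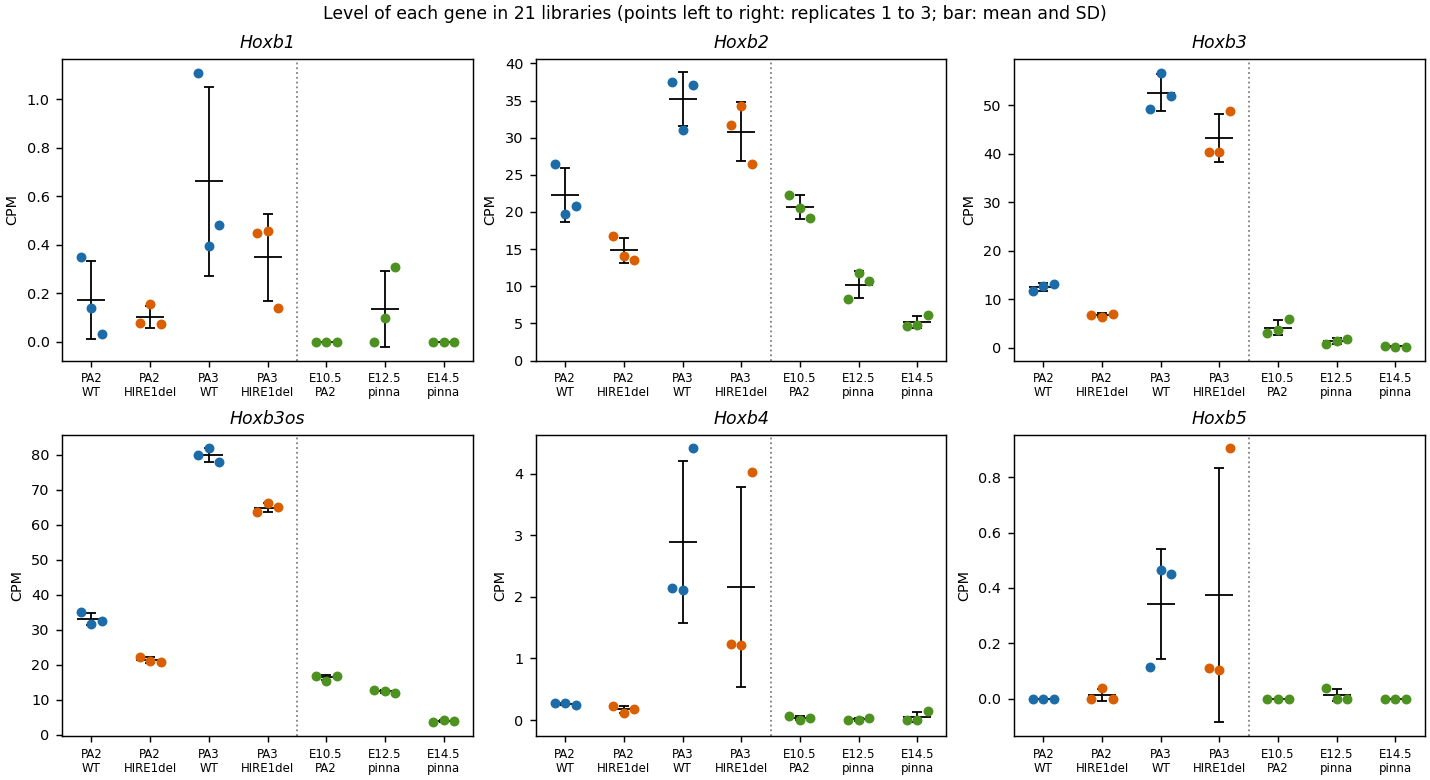
CPM of each of the 6 genes in all 21 libraries, by group, with 1 panel and 1 linear scale per gene; points are libraries, bars the mean and SD of 3 libraries, and the dotted line divides the separately normalized genotype (left) and stage (right) tables. Hoxb2, Hoxb3 and Hoxb3os are highest in PA3 and fall through the stages, and Hoxb4 exceeds 1 CPM in the PA3 libraries alone.

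The first comparison asked whether deletion of a Hoxa regulatory region on chromosome 6 changed these chromosome 11 genes in PA2. The counts of Hoxb3os and Hoxb3 fell in PA2 of HIRE1del embryos, to 64.7% and 53.7% of WT, and Hoxb2 was at 66.6% of WT without passing the test. Among the 4 genes tested 2 were called lower and none higher, where 0.32% of all 14383 genes tested were called lower and 0.438% in either direction. All 4 had groups that did not overlap, with HIRE1del the lower, as did 7.52% of all genes. The deletion itself showed in Hoxa2, the Hoxa gene of PA2 crest and a group 2 paralogue of Hoxb2, which was at 73.4, 77.2 and 84.2 CPM in WT and at 5.75, 4.75 and 7.10 CPM in HIRE1del.

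Hoxb3os was at 35.0, 31.6 and 32.5 CPM in the WT PA2 libraries and at 22.3, 20.97 and 20.8 CPM in those of HIRE1del. Every HIRE1del library lay below every WT library, with a spread within groups well under the gap (33.0 ± 1.77 against 21.3 ± 0.791 CPM, SD, n = 3). The log2 fold change was -0.63 (SE 0.057, 95% interval -0.75 to -0.51), with an edgeR adjusted p of 0.000105, and Hoxb3os ranked 6th by p among all genes tested. After the shared reads were divided, Hoxb3os was at 22.9 ± 0.0476 CPM in WT and 15.6 ± 0.461 CPM in HIRE1del, and its log2 fold change of -0.55 (SE 0.069) had an edgeR adjusted p of 0.00144. The fall of Hoxb3os thus stayed past the threshold with and without the division. The same division gave negative values for Hoxb3 (below), so the divided Hoxb3os is not an independent check. In WT it kept 69.3% of its counts, where the sorted E10.5 PA2 would give 53.4% if both strands were counted.

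Hoxb3, the group 3 gene of the cluster, was counted at 11.6, 12.7 and 13.1 CPM in WT and at 6.77, 6.31 and 6.98 CPM in HIRE1del. The groups did not overlap, and the fold change was -0.90 on the log2 scale (SE 0.10, 95% interval -1.11 to -0.68, edgeR adjusted p 0.000538). These counts hold reads of Hoxb3os as well, in a share that is not known. Division of the shared reads left 0.202 ± 0.815 CPM (SD, n = 3) of Hoxb3 in WT and -1.68 ± 0.519 CPM in HIRE1del, where a negative value means that even coverage of Hoxb3os would give more reads on the shared bases than were counted. All 3 HIRE1del values were negative, so that no fold change of the divided Hoxb3 could be fitted in PA2. In the sorted E10.5 PA2, whose counts hold 1 strand, Hoxb3 was at 2.91, 3.57 and 5.82 CPM, which would make 31.9% of its counts if both strands were counted, so the division does not show that Hoxb3 was absent. Whether Hoxb3 itself fell in PA2 cannot be told apart from the fall of Hoxb3os in these counts.

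Hoxb2, the other group 2 gene besides Hoxa2, was at 26.4, 19.7 and 20.8 CPM in WT and at 16.8, 14.1 and 13.6 CPM in HIRE1del. The lowest WT library was above the highest of HIRE1del, but the gap was small against the spread within WT. The log2 fold change of -0.59 (SE 0.13, 95% interval -0.88 to -0.30) had an edgeR adjusted p of 0.0989 over all genes, and 0.00332 with the DESeq2 Wald test. Divided counts gave a fold change of -0.60 (SE 0.19, edgeR adjusted p 0.353). Hoxb4 was at 0.271, 0.281 and 0.246 CPM in WT and 0.226, 0.117 and 0.185 CPM in HIRE1del, which is 23 counts against 14 over the groups, and was not called (log2 fold change -0.58, SE 0.79, edgeR adjusted p 0.884).

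Markers of other tissues were compared between the genotypes of PA2 as well, and the neural ones stood lower in HIRE1del. The summed level of the 11 neuron and neural progenitor markers was 89.4 to 93.3 CPM in WT and 69.3 to 71.7 CPM in HIRE1del, and that of the 4 glial markers 44.1 to 49.4 and 32.9 to 41.1 CPM. Neither range overlapped between the genotypes, none of these 15 genes was at 0 in a PA2 group, and 0 of the 11 tested were called (median log2 change -0.42 over 8 neuronal and -0.35 over 3 glial markers). Since the hindbrain and its derivatives also express Hoxb genes, these values stand beside the fall of Hoxb3os, and their part in it was not tested. Crest mesenchyme markers (1017 to 1134 and 1010 to 1151 CPM), epithelial markers (257 to 287 and 238 to 267 CPM) and endothelial markers (219 to 229 and 216 to 226 CPM) had overlapping ranges of the summed level. Of the 6 crest markers, Prrx1, Twist1, Dlx2 and Dlx5 were higher in HIRE1del without overlap (log2 0.21, 0.15, 0.45 and 0.37). Prrx2 and Pdgfra overlapped (0.16 and -0.29), and 0 of the 6 were called.

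In PA3, Hoxb3os fell to 81.3% of WT. It was at 79.9, 81.8 and 77.8 CPM in WT and at 63.7, 66.1 and 65.0 CPM in HIRE1del, with no overlap. Its log2 fold change was -0.30 (SE 0.054, 95% interval -0.41 to -0.18) with an edgeR adjusted p of 0.043, close to the threshold. Of the 4 genes tested, Hoxb3os alone was called in PA3, where 0.16% of all genes were called lower and 0.216% in either direction, and after division of shared reads its fold change was -0.39 (SE 0.064, edgeR adjusted p 0.0304). On the counts as deposited, the adjusted p rose above 0.05 when any of 11 of the 12 libraries was left out (all but PA2 WT replicate 1), and reached 0.227 without PA3 WT replicate 2 (log2 fold change -0.28), so that the size of the change held and the call did not. It was also lost without both PA3 libraries numbered 3 (0.115).

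Hoxb3 was at 49.3, 56.7 and 51.8 CPM in WT PA3 and at 40.3, 40.4 and 48.9 CPM in HIRE1del. These did not overlap, as in 7.36% of all genes, and the difference was not called (log2 fold change -0.28, SE 0.086, edgeR adjusted p 0.312). Here 45.2% of the counts in WT and 48.9% in HIRE1del remained after division, 23.8 ± 3.24 CPM in WT and 21.1 ± 5.26 CPM in HIRE1del (SD, n = 3), with overlapping groups. For the divided Hoxb3 the log2 fold change of -0.17 (SE 0.30) had an edgeR adjusted p of 0.896. Hoxb2 overlapped between the genotypes (37.5, 31.0 and 37.1 against 31.7, 34.2 and 26.4 CPM, log2 fold change -0.19, SE 0.13, edgeR adjusted p 0.66), and its divided counts gave -0.10 (SE 0.18, edgeR adjusted p 0.897). Neuron and neural progenitor markers in PA3 (191 to 274 CPM in WT, 175 to 266 CPM in HIRE1del) overlapped as well. Glial markers did not (98.7 to 133 and 88.5 to 97.7 CPM, 0 of 3 tested called), and their part in the fall of Hoxb3os was not tested.

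Whether the deletion acted more strongly in PA2 than in PA3 was asked with the interaction of genotype and arch. The difference of the log2 fold changes (PA2 minus PA3) was -0.61 for Hoxb3 (SE 0.13, edgeR adjusted p 0.42), -0.33 for Hoxb3os (SE 0.078, adjusted p 0.487), -0.39 for Hoxb2 (SE 0.18, adjusted p 0.887) and -0.16 for Hoxb4 (SE 0.90, adjusted p 0.989). None of the 4 was called by edgeR, in a contrast where 0.0487% of all genes were, although the unadjusted p was 0.000438 for Hoxb3, 0.000983 for Hoxb3os and 0.0525 for Hoxb2. With the PA2 and PA3 libraries of a genotype and number taken as 1 pool of embryos, since these deviated together from their group means, Hoxb3 passed (-0.61, edgeR adjusted p 0.0459), and it passed with the DESeq2 Wald test (adjusted p 0.0494). Some libraries of different genotype deviated together as well (r of up to 0.293), so the pools are an assumption. Divided counts gave a difference of -0.16 for Hoxb3os (SE 0.094, edgeR adjusted p 0.891) and of -0.50 for Hoxb2 (SE 0.26, adjusted p 0.887), and allowed none for Hoxb3.

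**Figure D4:**
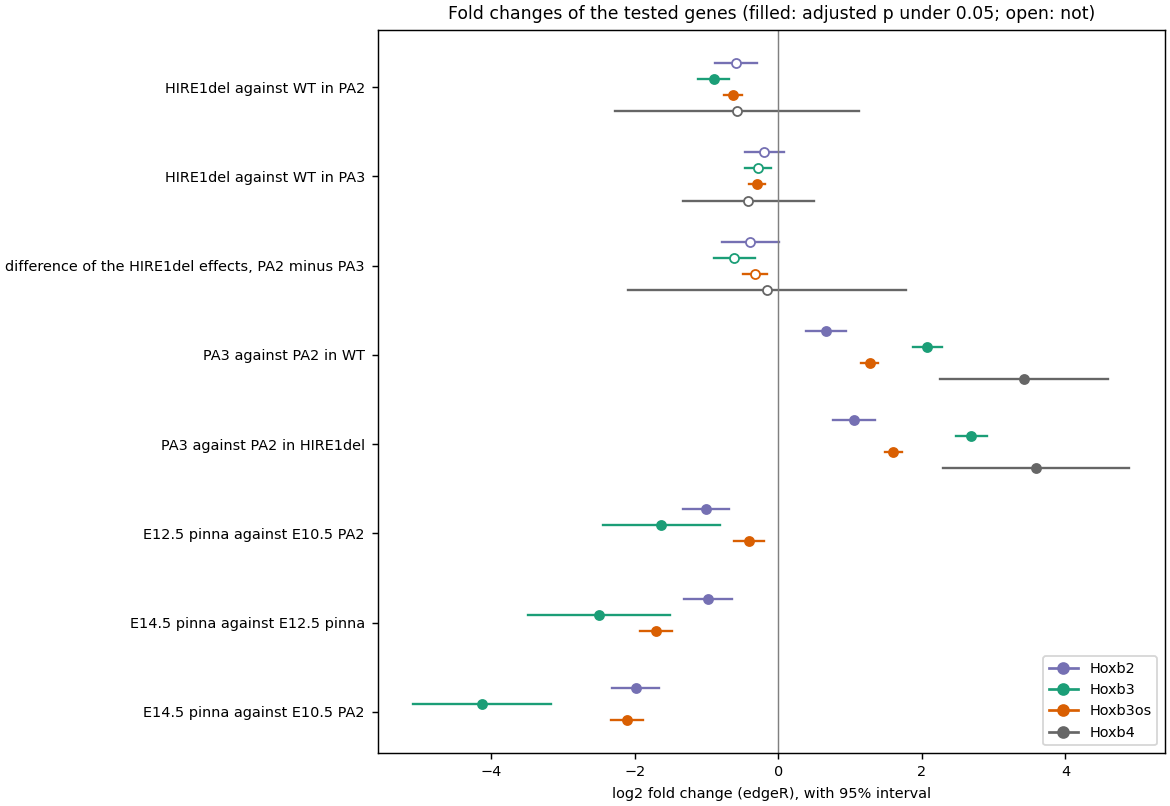
Log2 fold changes of the tested genes in the 8 comparisons, with 95% intervals from the edgeR fit; filled points have an adjusted p under 0.05 over all genes of the table, and Hoxb4 was not tested in the stages. The intervals are not adjusted for the number of genes. Those of Hoxb3os exclude 0 throughout, although its difference of the HIRE1del effects between the arches was not called. All 3 genes tested in the stages lie to the left.

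The arches were then compared with each other, since Hox genes enter the arches in nested domains. All 4 genes tested rose from PA2 to PA3 in WT, in a contrast where 19.1% of all genes were called higher and 36.5% either way, and none of the 4 overlapped between the arches (25.5% of all genes did not overlap with PA3 the higher). Hoxb4 passed the filter through its PA3 libraries alone (0.117 to 0.281 CPM in PA2), so its rise in either genotype is not independent of the filter. The rise was 1.58-fold for Hoxb2, 4.22-fold for Hoxb3 and 10.8-fold for Hoxb4. Hoxb1, the gene nearest the 3′ end, was 3.82-fold higher in PA3 at counts below the filter, so no order along the cluster is read from these values. The log2 fold changes were 0.66 for Hoxb2 (SE 0.13), 2.08 for Hoxb3 (SE 0.092) and 3.43 for Hoxb4 (SE 0.54), with edgeR adjusted p of 0.00154, 1.81e-08 and 0.000329. The 95% intervals of Hoxb3 (1.88 to 2.28) and Hoxb4 (2.26 to 4.60) overlapped, and both lay above that of Hoxb2 (0.38 to 0.94). Hoxb3os rose 2.42-fold (log2 1.28, SE 0.055, edgeR adjusted p 1.61e-08). In HIRE1del embryos the 4 genes rose too (log2 1.05 for Hoxb2, 1.60 for Hoxb3os, 2.69 for Hoxb3 and 3.59 for Hoxb4, edgeR adjusted p 6.12e-05, 2.38e-09, 2.38e-09 and 0.000534), where 18.7% of all genes were called higher and 33.4% either way, again with no overlap (23.7% of all genes).

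The division of shared reads raised the contrast of Hoxb3 and lowered that of Hoxb2. Hoxb3 in WT went from 0.202 ± 0.815 CPM in PA2 to 23.8 ± 3.24 CPM in PA3. Its log2 fold change of 5.66 (SE 0.44, edgeR adjusted p 3.897e-06) rests on PA2 libraries at -0.698, 0.416 and 0.889 CPM, the negative one set to 0. The single-strand libraries of sorted E10.5 PA2 had Hoxb3 at 2.91, 3.57 and 5.82 CPM, so the size of this fold change cannot be relied on. Hoxb2 went from 17.1 ± 3.596 to 23.0 ± 4.42 CPM, a fold change of 0.43 on the log2 scale that was no longer called in WT (SE 0.18, edgeR adjusted p 0.0803), and of 0.93 in HIRE1del that was (SE 0.19, adjusted p 0.00205). Hoxb3os kept its rise (log2 1.23 in WT, SE 0.066, edgeR adjusted p 1.03e-07).

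**Figure D5:**
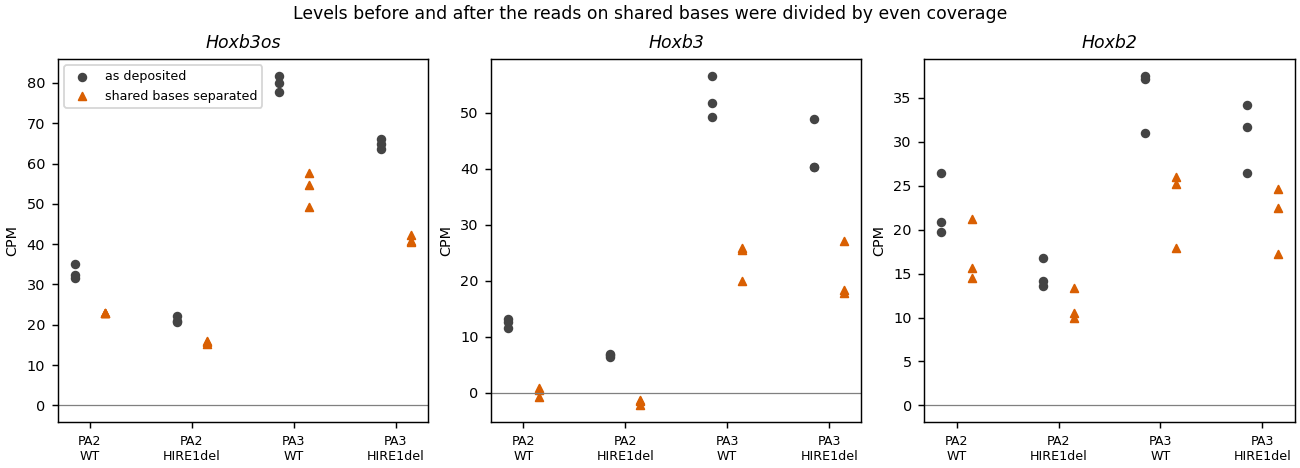
CPM of Hoxb3os, Hoxb3 and Hoxb2 in the 12 genotype libraries as deposited (circles) and after reads on the shared bases were divided by even coverage (triangles). In PA2 the divided Hoxb3 lies between -2.28 and 0.889 CPM, whereas Hoxb3os keeps 69.3% of its counts in WT and 73.2% in HIRE1del.

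An outside value for the mixing of strands came from the sorted E10.5 PA2, whose counts hold 1 strand. There Hoxb3os was at 16.3, Hoxb3 at 4.10 and Hoxb2 at 20.7 CPM on average. If both strands were counted, the same RNA would give 30.6 ± 1.13, 12.8 ± 1.74 and 24.4 ± 1.61 CPM (SD, n = 3). The unsorted PA2 WT libraries had 33.0 ± 1.77, 12.45 ± 0.789 and 22.3 ± 3.61 CPM. The tables were sequenced and normalized separately and differ in sorting, so these levels are set side by side without a test. They also show Hoxb3 above 0 in PA2 crest, at 2.91, 3.57 and 5.82 CPM in the single-strand libraries.

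The tissue in the PA3 libraries was more mixed, as their markers show beside each of these rises. Neuron and neural progenitor markers summed to 89.4 to 93.3 CPM in PA2 WT and 191 to 274 CPM in PA3 WT, with 8 of the 8 tested called higher. Glial markers (44.1 to 49.4 and 98.7 to 133 CPM, 2 of 3 higher), epithelial markers (257 to 287 and 544 to 697 CPM, 5 of 7 higher) and red blood cell markers (1413 to 2175 and 11376 to 21900.5 CPM, 4 of 4 higher) rose too, and 5 of the 6 crest mesenchyme markers fell (1017 to 1134 and 655 to 826 CPM). The part of these tissues in the rise of the Hoxb genes was not tested.

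Hoxb4, the group 4 gene that in the hindbrain begins at the boundary of rhombomeres 6 and 7, was at 2.14, 2.11 and 4.41 CPM in PA3 WT and at 1.23, 1.22 and 4.03 CPM in PA3 HIRE1del. In both genotypes the library numbered 3 was more than 2 times the others, and without it the genotypes did not overlap. The fold change between genotypes in PA3 (log2 -0.42, SE 0.42) had an edgeR adjusted p of 0.793, and it was 0.03 without PA3 WT replicate 3 and -1.24 without PA3 HIRE1del replicate 3. No direction can be given. The rise from PA2 to PA3 stayed called without both libraries numbered 3 (log2 2.99 in WT and 2.76 in HIRE1del, edgeR adjusted p 3.15e-05 and 0.000145).

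Hoxb5, the group 5 gene, had 0 counts in the 3 PA2 WT libraries and 1 in those of PA2 HIRE1del. In PA3 it had 3, 13 and 14 counts in WT (0.115, 0.464 and 0.450 CPM) and 3, 3 and 26 in HIRE1del (0.112, 0.105 and 0.904 CPM), where the library numbered 3 was again the highest. Its mean in PA3 WT, 0.343 ± 0.198 CPM (SD, n = 3), was at least 3.28-fold higher than the floor of 3 counts per library in PA2 WT. The genotypes overlapped in PA3. Of its exonic bases 100 are shared with Hoxb5os on the other strand, which had 2, 4 and 5 counts in PA3 WT.

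Hoxb1, the rhombomere 4 gene, lay near the floor in PA2, with 9, 4 and 1 counts in WT and 2, 4 and 2 in HIRE1del. In PA3 it had 29, 11 and 15 counts in WT and 12, 13 and 4 in HIRE1del, means of 0.662 ± 0.390 and 0.348 ± 0.181 CPM (SD, n = 3). The genotypes overlapped in both arches. Without a filter on low counts, edgeR called Hoxb1 (log2 1.94, adjusted p 0.0389) and Hoxb5 (adjusted p 0.00856) higher in PA3 than in PA2 of WT, and Hoxb5 also in HIRE1del (adjusted p 0.0198).

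Through the 3 stages of sorted crest, Hoxb2, Hoxb3 and Hoxb3os fell at both steps. All 3 of 3 tested genes were called lower in each contrast, where 33.7% (E12.5 pinna against E10.5 PA2), 33.1% (E14.5 against E12.5 pinna) and 40% (E14.5 pinna against E10.5 PA2) of all 13438 genes were called lower and 68.8%, 65.7% and 82% either way, so that a call by itself was common. The 3 genes had no overlap between any 2 stages, which held with the later stage lower for 37%, 34.8% and 41.1% of all genes. The contrasts share groups of libraries, and the calls of Hoxb3 at E14.5, where it lay under 1 CPM, are not independent of the filter. From E10.5 PA2 to the E12.5 pinna, tissue and stage changed together, while trypsin was used to free the cells at both. From the E12.5 to the E14.5 pinna, stage and enzyme (trypsin, then papain) changed together. From E10.5 to E14.5 all of these changed. What changed together in a contrast cannot be told apart.

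Hoxb3os was at 16.7, 15.4 and 16.9 CPM in E10.5 PA2, at 12.7, 12.3 and 11.9 CPM in the E12.5 pinna and at 3.46, 4.02 and 3.90 CPM in the E14.5 pinna. The stages did not overlap, and most of the loss fell in the later step, with log2 fold changes of -0.41 (SE 0.096, edgeR adjusted p 0.00286) and then -1.70 (SE 0.10, adjusted p 1.17e-07). Hoxb2 was at 22.3, 20.5 and 19.2 CPM, then at 8.28, 11.7 and 10.7 CPM and then at 4.71, 4.73 and 6.17 CPM. Its steps were of like size, -1.01 (SE 0.15, edgeR adjusted p 8.53e-05) and -0.98 (SE 0.15, adjusted p 0.000175), a 3.97-fold fall in all.

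Hoxb3 fell furthest, from 2.91, 3.57 and 5.82 CPM through 0.706, 1.40 and 1.84 CPM to 0.330, 0.189 and 0.175 CPM. The E14.5 libraries held 15, 9 and 8 Hoxb3 counts, so that 5.72% of the E10.5 level remained by the fit (log2 -4.13, SE 0.43, edgeR adjusted p 3.19e-06). Hoxb3 passed the filter through its E10.5 and E12.5 libraries, so its fall to E14.5 is not independent of the filter. The step from E10.5 to E12.5 was -1.63 (SE 0.37, adjusted p 0.00214) and that from E12.5 to E14.5 was -2.50 (SE 0.45, adjusted p 0.0005). Hoxb1 had no count at E10.5 and E14.5 and 0, 3 and 9 at E12.5. Hoxb4 had 3, 1 and 7 counts over the 3 libraries of each stage and Hoxb5 0, 1 and 0, each at most 3 counts per library on average. Without a filter, edgeR called Hoxb1 higher at E12.5 than at E10.5 (adjusted p 0.0484) and lower again at E14.5 (adjusted p 0.0266), on the counts of 2 libraries. Neuron and neural progenitor markers summed to 38.4 to 45.0, 31.0 to 36.7 and 13.4 to 19.8 CPM, and of the 5 tested 3 rose and 2 fell from E10.5 to E14.5. All 4 glial markers rose (20.5 to 23.4, 21.6 to 25.6 and 84.3 to 99.8 CPM), and the summed crest mesenchyme markers went from 1627 to 1886 CPM at E10.5 through 3344 to 3610 CPM to 3594 to 3990 CPM, with 3 of 6 called higher and 3 lower from E10.5 to E14.5. Endothelial markers summed to 6.52 to 8.82, 18.7 to 25.7 and 108 to 172 CPM (1 of 4 called higher from E10.5 to E14.5), and epithelial markers to 9.84 to 11.9, 7.80 to 9.72 and 23.0 to 38.2 CPM (3 of 5 higher and 2 lower). The part of these cells in the fall of the Hoxb genes was not tested.

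The ratio of Hoxb3os to Hoxb3 within a library needs no other gene as a reference, but in the genotype libraries it is a ratio of counts that include each other's reads on the shared bases, not of the 2 transcripts. It was 3.02, 2.49 and 2.47 in PA2 WT and 3.29, 3.32 and 2.98 in PA2 HIRE1del, and 1.62, 1.44 and 1.502 in PA3 WT and 1.58, 1.64 and 1.33 in PA3 HIRE1del. Every PA2 library was above every PA3 library. On the log2 scale with 0.5 CPM added, PA3 was lower than PA2 by 0.77 in WT and by 1.02 in HIRE1del, with an exact two-sided permutation p of 0.1 each, the smallest that 3 against 3 libraries allow, and 0.2 adjusted over the 4 comparisons made. Between genotypes it differed by 0.23 in PA2 (exact permutation p 0.2, adjusted 0.267) and by -0.01 in PA3 (exact permutation p 1). After division of the shared reads it was 2.73, 2.24 and 1.93 in PA3 WT and 2.21, 2.38 and 1.49 in PA3 HIRE1del, and could not be formed in PA2, where the divided Hoxb3 lay near or below 0. In the single-strand stage libraries the ratio was 5.74, 4.32 and 2.90 in E10.5 PA2, 18.1, 8.79 and 6.48 in the E12.5 pinna and 10.47, 21.2 and 22.3 in the E14.5 pinna.

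Beyond these 6 genes the cluster gave few counts. Of the 8 other Hoxb cluster genes (Hoxb5os, Hoxb6, Hoxb7, Hoxb8, Hoxb9, Hoxb13, Mir10a and Mir196a-1), 0 passed the filter in the genotype table, and their summed level was at most 0.0616 CPM in PA2 and 0.839 CPM in PA3. In the stage table Hoxb9, a group 9 gene of the trunk, passed. It had 0, 0 and 0 counts at E10.5, 1, 6 and 2 at E12.5 and 34, 57 and 54 at E14.5 (1.04 ± 0.255 CPM, SD, n = 3), which is at least 10.4-fold higher than the E10.5 floor. It was called higher (edgeR adjusted p 1.99e-05), while Hoxb2, Hoxb3 and Hoxb3os fell. Hoxb9 passed the filter through its E14.5 libraries alone, so this call is not independent of the filter. From E10.5 to E14.5, 82% of all genes were called in either direction.

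Of 9 paralogues of the 6 genes analysed in the other clusters, 5 passed the filter, and Hoxa2 and Hoxa3 were called lower in both arches (log2 fold change -3.74 and -3.54 in PA2, -1.36 and -2.18 in PA3), while Hoxd1, Hoxd3 and Hoxd4 were not called. Both called genes belong to the Hoxa cluster, whose regulatory region was deleted. The list's median change in PA2 was -0.67, which is the value of Hoxd4 (SE 0.74, not called). The median was -0.61 for the 4 Hoxb genes, of which Hoxb3os shares reads with Hoxb3 and Hoxb2, and -0.01 for all genes tested. Between the arches of WT, Hoxa3, Hoxd3 and Hoxd4 rose (log2 3.09, 4.81 and 3.95) and Hoxa2 and Hoxd1 fell (-0.35 and -1.54). Within PA2 the genotype fold changes of Hoxd3 and Hoxd4 had SEs of 0.63 and 0.74, near the 0.79 of Hoxb4. Their rises to PA3 may therefore depend on the filter as that of Hoxb4 does. In the stages Hoxa2 and Hoxa3 rose from the E10.5 PA2 to the E14.5 pinna (log2 0.31 and 1.58), while Hoxb2 and Hoxb3 fell. Hoxa2 rose to E12.5 (log2 0.76) and then fell to E14.5 (-0.45, SE 0.060, edgeR adjusted p 5.88e-05), where Hoxb2 fell at both steps. Of the 4 noncoding genes of the Hoxa cluster, Hoxaas2 and Hotairm1 fell in PA2 (log2 -5.67 and -2.27, edgeR adjusted p at most 0.00377).

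Among the 8 Hox cofactors analysed, the Meis, Pbx and Pknox homeodomain proteins that bind DNA with Hox proteins, 2 of the 7 tested fell in PA2 of HIRE1del. Meis2 was at 461, 435 and 454 CPM in WT and at 274, 287 and 290 CPM in HIRE1del (log2 fold change -0.67, SE 0.047, edgeR adjusted p 7.92e-06), and Meis1 at 309, 316 and 362 and at 199, 245 and 247 CPM (-0.51, SE 0.097, edgeR adjusted p 0.0359). In PA3 neither was called, and the interaction was called for Meis2 (-0.62, SE 0.066, edgeR adjusted p 0.00151). From E10.5 to E14.5, where 82% of all genes were called in either direction, both rose (log2 0.68 for Meis1 and 0.47 for Meis2), with Meis3 (0.44) and Pknox1 (0.38), while Pbx3 (-0.94), Pbx4 (-0.89) and Pknox2 (-2.91) fell.

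None of the 16 tested among 21 regulators of anterior Hoxb genes analysed was called in either arch between the genotypes. Egr2, a rhombomere 3 and 5 factor that drives Hoxb2 in the hindbrain, had no count in any library. Between PA2 and PA3 of WT, 3 rose (Cyp26c1 and Cyp26b1, which break down retinoic acid, and Rara, log2 2.32, 1.64 and 0.21) and 6 fell (Rarg, Rxrg, Crabp1, Eed, Crabp2 and Ezh2, log2 -0.94, -0.73, -0.55, -0.35, -0.31 and -0.28), 9 of 16 in all beside 36.5% of all genes. From E10.5 to E14.5, 7 of 15 rose and 6 fell, beside 82% of all genes called in either direction, and those that fell were the retinoic acid enzymes Cyp26a1 (log2 -9.20) and Aldh1a2 (-4.21), Crabp2 (-1.53) and the Polycomb genes Ezh2 (-1.50), Eed (-1.01) and Suz12 (-0.37). Those that rose were Cyp26b1 (3.09), Rxrg (3.02), Ezh1 (1.79), Crabp1 (0.83), Rxra (0.55), Rarb (0.52) and Kmt2a (0.42).

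Of the 13 genes listed around the Hoxb cluster, 10 were tested between the genotypes, 0 of them were called in either arch, and their median change in PA2 was 0.01. Between PA2 and PA3 of WT, Skap1, next to the cluster, rose (log2 3.45, SE 0.57, from 0.119 ± 0.0658 to 1.32 ± 0.581 CPM), with Copz2 (0.38) and Nfe2l1 (0.17), and Cbx1 and Igf2bp1 fell (-0.33 and -0.25), 5 of 10 in all beside 36.5% of all genes. Skap1 passed the filter through its PA3 libraries, so its rise is not independent of the filter. From E10.5 to E14.5, where 40% of all genes were called lower and 82% either way, 6 of 9 fell (Igf2bp1, Cbx1, Atp5g1, Snf8, Snx11 and Cdk5rap3, log2 -3.11 to -0.27) and Copz2 rose (2.21).

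Genes whose pattern was most like that of the Hoxb genes were listed by Pearson's r of log2 CPM (with 0.5 added), as a description over libraries that share groups. Over the 12 genotype libraries and 12733 genes, Hoxb3os was most like Hoxb3 (r = 0.993, with shared reads), Igfbp5 (0.992) and Gask1b (0.988), and Hoxb3 was most like Hoxb3os, Anxa5 and Igfbp5 (both 0.991). Hoxb2 was most like Tagln2, Schip1 and Rnf128 (0.970, 0.967 and 0.966), and Hoxb4 most like Egfr, Pdgfrl and Hoxd3 (0.982, 0.977 and 0.971). Over the 9 stage libraries, Hoxb3os was most like Nr2f1, Srd5a1 and Ebf3 (0.999, 0.998 and 0.997), Hoxb2 like Ldah, Ddx20 and Arl6ip6 (0.997, 0.994 and 0.994) and Hoxb3 like Mtfr2, Zswim1 and Trmt9b (0.986, 0.982 and 0.978). Among themselves, the 4 genes tested in the genotype table had r between 0.794 (Hoxb2 and Hoxb4) and 0.993, and the 3 in the stage table between 0.889 (Hoxb3 and Hoxb3os) and 0.945 (Hoxb2 and Hoxb3).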

How the data were processed

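Libraries were made with a TruSeq kit that the labels and methods call unstranded. The authors aligned reads to GRCm38 (mm10) with QuasR and Rhisat2 and counted them over exons of UCSC known genes in the opposite orientation. The deposited values are these raw counts per gene, with 0 further columns of samples, and 18 genes without a symbol stayed in the totals.

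Each table was fitted with 1 mean per group in edgeR 4.0.16 (R 4.3.3; TMM scaling, two-sided quasi-likelihood test, Benjamini-Hochberg over 14383 or 13438 genes, called at an adjusted p under 0.05). DESeq2 1.42.0 and limma 3.58.1 served in alternatives. The fits were tested on simulated data. Reads on shared exonic bases were divided per library by solving 3 linear equations. Replicates were not copies (chi-square per degree of freedom of at least 7.00). The floor of 3 counts covers counting error only.

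PA2 and PA3 libraries of 1 genotype and number deviated together from their group means (r of 0.213 to 0.382, and -0.262 to 0.0799 for other numbers of that genotype), so the number was taken as a pool of embryos. Libraries of different genotype, which cannot share embryos, reached r of up to 0.293, so the pools are an assumption. The 6 genes and the lists were chosen with earlier results of these data known. Some genes of the lists are not reported here and were left out of the lists' counts and medians. Named are these 6, called genes of the lists and, per tested gene, the 3 most similar genes whose mean log2 CPM reached 1.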

Additional observations from a re-analysis of the deposited data

Results flagged for a closer look

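The change of Hoxb3 with the deletion differed between the arches when the PA2 and PA3 libraries of a genotype and number were taken as 1 pool (-0.61 on the log2 scale, PA2 minus PA3, edgeR adjusted p 0.0459). Without the pools the difference was -0.61 as well, with an edgeR adjusted p of 0.42 (0.0459 to 0.952 over the alternatives). In PA2 the Hoxb3 counts include reads of Hoxb3os, in a share that is not known.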

How the results depend on the processing

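The alternatives were DESeq2 size factors, total counts, no filter, 1 CPM in every library, the DESeq2 Wald test, limma-voom, a replicate block, only the 6 libraries compared, and leaving out each library. Dividing shared reads and leaving out both PA3 libraries numbered 3 were chosen after seeing the data. Of 577 fold changes recomputed for the Hoxb genes, 551 kept direction and side of the threshold, 15 lost the call, 4 gained it and 7 changed sign.

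In PA2 of HIRE1del 2 genes were called (2 in each omission of a library), 3 with the replicate block or the DESeq2 Wald test (Hoxb2, adjusted p 0.0345 and 0.00332) and 1 with divided reads, where no value of Hoxb3 could be fitted. In PA3 1 was called, and 0 with no filter, with only the 6 libraries, or without both PA3 libraries numbered 3 (Hoxb3os adjusted p 0.0664, 0.126 and 0.115), and 0 to 1 when single libraries were left out. For the difference between arches 0 were called, and 1 with the DESeq2 Wald test or the replicate block of genotype and number (Hoxb3). The replicate block changed no other call. Between PA2 and PA3, 4 genes were called (3 to 6 over the alternatives in WT, 3 to 5 in HIRE1del), and 3 between stages (2 to 4). 

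Over all genes, 63 were called in PA2 (162 with DESeq2, 105 with the replicate block, 33 to 35 without PA2 WT replicate 2 or 3 or PA2 HIRE1del replicate 2), 31 in PA3 (94, 54, 18 without both PA3 libraries numbered 3, and 8 to 19 on omission of replicate 2 or 3 of PA2 WT or of replicate 1 or 2 of either PA3 group) and 7 for the difference (29, 26, 3 or 4 on omission of any library of PA2 WT, of replicate 1 or 2 of PA2 HIRE1del or of replicate 2 of PA3 HIRE1del, and 12 on omission of replicate 3 of PA2 HIRE1del). In the genotype contrasts within an arch and between stages, same-numbered libraries share only a number.

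Hoxb4 changed sign in the difference between arches (-0.16) with limma-voom (0.00584), without both PA3 libraries numbered 3 (0.23) and when single libraries were left out (-0.60 to 0.66), and in PA3 when single libraries were left out (-1.24 to 0.0295), none of these being called. The ratio of Hoxb3os to Hoxb3 between genotypes in PA3 (-0.01) changed sign when single libraries were left out (-0.0690 to 0.0793). The cause was not tested.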
